A study of Mus musculus with 6 samples.

Results

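The EGF ligand and ErbB receptor genes were followed in DBA+ kidney cells from WT mice, from ADPKD mice and from ADPKD mice given MMPP. The 10 genes were taken by symbol from the 55367 symbols listed for every library: the ligands Egf, Tgfa, Areg, Ereg, Hbegf and Btc, and the receptors Egfr, Erbb2, Erbb3 and Erbb4. All 10 passed the filter on low values that left 14862 genes for testing. RNA-seq covered 3 groups with 2 libraries each, all labelled Day115, and the labels do not say whether the libraries of a group came from separate mice, so p-values measure only the spread between these libraries. WT mice received saline and carried intact Pkd1, ADPKD mice received saline and carried the Pkd1-/- genotype, and the ADPKD+MMPP mice carried the same deletion and received MMPP, an ultrasmall melanin-like nanoparticle with polyethylene glycol and chelated manganese. The male mice were of the Pkd1 fl/fl;Cre/Esr1+ line, in which tamoxifen activates the recombinase that removes Pkd1, and the promoter that drives it is not given in the sources used here. MMPP was injected repeatedly into the vein. Cells were released from minced kidney with collagenase and hyaluronidase and pulled out with DBA, a plant lectin that binds collecting duct epithelium.

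EGF-family ligands are made as membrane-anchored precursors and are cut loose by ADAM proteases, after which they bind the extracellular part of an ErbB receptor and make it pair with another. EGFR (Egfr) and ERBB4 bind ligand and signal through their own kinase, ERBB2 has no known ligand and acts as a partner, and ERBB3 has a weak kinase and passes its signal through PI3K. In the healthy kidney, EGF is made mostly by the thick ascending limb and distal convoluted tubule, and abnormal placement of EGFR and a heightened response to its ligands are long known in cystic epithelium.

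The study asked whether MMPP acts through CREB, a transcription factor that binds the cAMP response element (CRE), so the promoters of the members were read for this element. RefSeq starts on GRCm38.p6 were listed for 7 of the 10 members, in 8 windows of 250 bases before the start, and Ereg, Hbegf and Erbb3 had no entry. Motifs were searched on either strand: the CRE TGACGTCA, its core TGACG (which each full CRE holds on either strand), the AP-1 site TGANTCA, the GC box GGGCGG and the TATA box TATAAA. The promoter of Areg is shown because it alone among the 7 held the full CRE, and those of Egf and Egfr because Egf was lower and Egfr higher in ADPKD cells. The windows are Areg at chr5:91139349-91139598 on the plus strand, Egf at chr3:129755323-129755572 on the minus strand and Egfr at chr11:16751953-16752202 on the plus strand, written 5′ to 3′ with the motifs in capitals.
Areg: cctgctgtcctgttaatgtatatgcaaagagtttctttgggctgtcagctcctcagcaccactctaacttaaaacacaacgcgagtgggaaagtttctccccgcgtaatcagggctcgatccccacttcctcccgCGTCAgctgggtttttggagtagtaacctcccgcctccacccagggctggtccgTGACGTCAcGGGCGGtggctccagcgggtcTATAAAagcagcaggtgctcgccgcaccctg
Egf: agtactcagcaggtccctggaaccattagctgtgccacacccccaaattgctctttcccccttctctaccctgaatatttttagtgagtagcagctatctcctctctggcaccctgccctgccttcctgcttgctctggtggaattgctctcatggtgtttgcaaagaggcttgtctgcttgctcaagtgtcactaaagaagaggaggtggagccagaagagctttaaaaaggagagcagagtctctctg
Egfr: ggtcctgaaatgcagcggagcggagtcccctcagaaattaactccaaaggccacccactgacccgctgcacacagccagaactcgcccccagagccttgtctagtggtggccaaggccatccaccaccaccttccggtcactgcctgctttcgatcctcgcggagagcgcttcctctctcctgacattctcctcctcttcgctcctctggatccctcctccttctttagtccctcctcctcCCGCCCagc
The Areg window held the CRE at bases 61 to 54 before the start, the core again further upstream, a GC box at bases 52 to 47 and a TATA box at bases 31 to 26. Of 32851 promoters of this length, 1.55% held the full CRE, 17.8% the core, 6.75% the AP-1 site, 32.7% the GC box and 12.4% the TATA box. The Egf window above held none of these motifs, and neither did the second Egf window, which opens no annotated transcript, nor that of Erbb4. The Egfr window held a GC box at bases 9 to 4, and the Tgfa window held GC boxes at bases 126 to 121 and 15 to 10. Btc and Erbb2 held the core without the full element, and 25 bases around it are shown with the core in capitals, Btc from chr5:91403093-91403117 on the minus strand and Erbb2 from chr11:98412303-98412327 on the plus strand.
Btc: agaaatgaacCGTCAggtgagaccc
Erbb2: gcaagcgaggCGTCAgggcacaggg
A match describes these letters only and is not a measured binding site.

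Depth read from the steps in the FPKM, with the commonest step taken as a read pair, was 30.6 to 33.1 M reads in the WT and ADPKD libraries, but 11.8 and 10.9 M reads after MMPP. FPKM are fragments per kilobase of exon and per M mapped, so levels of different genes can be set side by side within a library, a comparison that the shift by gene structure described next limits in the ADPKD+MMPP libraries. Pkd1 had 17.7 and 17.2 FPKM in WT, 7.64 and 8.91 in ADPKD and 4.34 and 3.99 in ADPKD+MMPP, lower in every library of the Pkd1-/- mice. Of the low gene values that came to a whole number of reads, 35.5% to 37.5% were odd numbers in WT and ADPKD, against 7.83% and 7.26% after MMPP. This is a difference in how the values came about that cannot be told apart from the treatment. Among 12374 protein-coding genes, the median log2 fold change in ADPKD+MMPP against ADPKD went from -1.70 for genes with under 5% of their exon bases in exactly 1 annotated transcript to 1.09 for those with over 95%. In ADPKD against WT the medians over the same 20 bins stayed between -0.05 and 0.09. The members' log2 fold changes after MMPP are therefore given also with each library centred within these bins, named centred from here on, while levels, shares, ratios and marker sums are as deposited. The principal cell marker Aqp2, a water channel of the collecting duct, had 677 to 3555 FPKM over the 6 libraries. Markers of other cells were also present: 12 proximal tubule markers summed to 390 to 709 FPKM in WT, 266 to 861 in ADPKD and 13428 to 14095 in ADPKD+MMPP, and 12 macrophage and leukocyte markers to 75.2 to 77.1, 562 to 677 and 1168 to 1222. Kap alone had 12822 and 12116 FPKM of the proximal tubule sums after MMPP. The median log2 fold change of the 12 proximal tubule markers in ADPKD+MMPP against ADPKD was 2.53 as deposited. For the 11 macrophage and leukocyte markers tested it was -0.94, with 5 higher and 6 lower, though their sum rose. Fewer cells of a type and less RNA per cell cannot be told apart in such bulk samples.

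**Figure D1:**
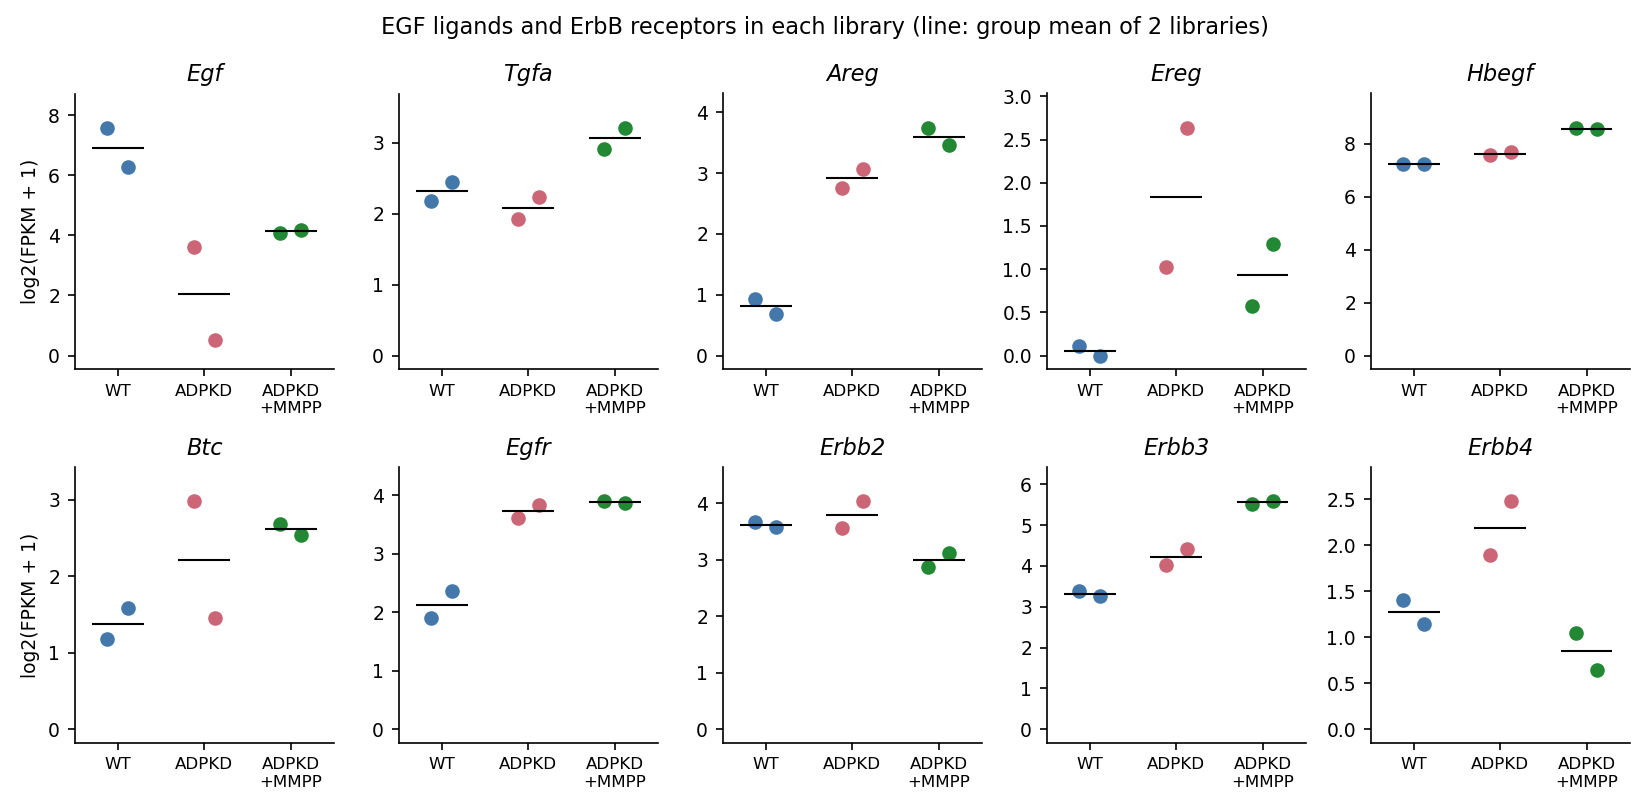
Level of each of the 10 genes, as log2(FPKM + 1) on a separate vertical scale per gene, in the 2 libraries of each group (points) with their mean (line). Egf is high in WT and apart in the ADPKD libraries, Areg and Egfr are higher in all 4 Pkd1-/- libraries than in WT, and Erbb3 goes from 8.55 FPKM in a WT library to 47.1 in an ADPKD+MMPP library.

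In ADPKD cells, Egf, the founding ligand of the family, was far lower than in WT, while the ligands Areg and Ereg and the receptors Egfr, Erbb3 and Erbb4 were higher. By limma at a fold change of at least 1.5 and an unadjusted P under 0.05, 5 of the 10 genes were called higher and 1 lower, where 26.7% of all tested genes were called, 14.2% higher and 12.5% lower. WT and ADPKD libraries lay apart for 7 of the 10, 6 higher and 1 lower, beside 67% of all tested genes. For the 10 genes the median log2 fold change was 0.87, and over all genes tested it was 0.03. All 6 calls held in the alternative centred by gene structure that is described above, in which 27.3% of protein-coding genes were called, 13.5% higher and 13.8% lower. Tgfa, Hbegf, Btc and Erbb2 were not called.

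Egf (chromosome 3 from 129677565 to 129755316, minus strand, GRCm38) had 191 and 75.7 FPKM in the WT libraries, 11.4 and 0.418 in ADPKD, and 15.8 and 17.3 in ADPKD+MMPP. The ADPKD libraries lay below the WT libraries and differed from each other by a larger factor than those of the other groups, the lower resting on 151 reads and the higher on 4240. Against WT, the log2 fold change in ADPKD was -4.86 (SE 1.01, adjusted p = 0.0212 by limma with Benjamini-Hochberg adjustment), which was -6.42 without the first ADPKD library and -3.29 without the second. The segments that make EGF were followed by 10 thick limb and distal convoluted tubule markers. Their summed FPKM was 578 to 1403 in WT, 223 to 670 in ADPKD and 339 to 356 in ADPKD+MMPP, with no marker at 0. The WT and ADPKD sums overlapped, and the ADPKD+MMPP sums lay within the ADPKD range. Single markers differed more than the sums: after MMPP, 5 of the 10 were called higher and 2 lower than in ADPKD as deposited. Their median was 0.76, beside 70.9% of all tested genes called. These markers have a median of 18.8% of exon bases in 1 transcript, so the shift by gene structure bears on the sums after MMPP. Of these 10 markers, 4 were called lower, 1 higher and 5 not called in ADPKD, with a median log2 fold change of -1.11. Egf relative to Umod, the thick limb gene for uromodulin, was 0.193 and 0.237 in WT but 0.0228 and 0.00275 in ADPKD, so Egf differed by more than Umod did. Relative to Slc12a1, the thick limb sodium-potassium-chloride carrier, Egf was 1.12 and 0.935 in WT and 0.207 and 0.0216 in ADPKD. Umod and Slc12a1 are both thick limb genes, and no ratio to a distal convoluted tubule marker was taken. The part of a smaller share of thick limb or distal convoluted tubule cells in the Egf difference was not tested beyond these ratios. The exons of Egf share 607 bases with Gm42697 and 500 bases with 6330410L21Rik, both on the opposite strand, and whether counting used the strand is not given in the sources used here.

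Areg (amphiregulin, chromosome 5 from 91139599 to 91148432, plus strand) had 0.915 and 0.611 FPKM in WT, 5.77 and 7.42 in ADPKD, and 12.4 and 9.96 in ADPKD+MMPP. The groups did not overlap, and the ADPKD mean was 8.64 times the WT mean. ADPKD exceeded WT by a log2 fold change of 2.1 (SE 0.18, adjusted p = 0.00331 by limma) and it was called under each alternative tried. The WT values rested on 34 and 23 reads and the ADPKD values on 232 and 289.

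Ereg (epiregulin), its neighbour on the same strand (chromosome 5 from 91074622 to 91093646), had 0.0792 and 0 FPKM in WT, 1.04 and 5.22 in ADPKD, and 0.492 and 1.44 in ADPKD+MMPP. In WT this was 10 reads in one library and none in the other, where the 3 reads that a count of 0 allows would be 0.0235 FPKM. Every Pkd1-/- library was above both WT libraries, but the ADPKD libraries lay far apart. Against WT, the log2 fold change in ADPKD was 1.78 (SE 0.53) with an adjusted p = 0.0593 by limma, and the call was lost when either WT library was left out, at values of 1.83 and 1.72. Without the first ADPKD library the value was 2.58, and without the second 0.97. With a pseudocount of 0.1 in place of 1 it was 4.2 (adjusted p = 0.0352). Ereg shares 141 exon bases with Gm19610 on the opposite strand.

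In ADPKD against WT, most macrophage and leukocyte markers went the same way as Areg and Ereg. Of the 11 tested, 10 were called higher and 1 lower, beside 26.7% of all tested genes called, with a median log2 fold change of 2.11. After MMPP, 5 were called higher and 6 lower than in ADPKD as deposited, beside 70.9% of all tested genes called. There Areg was higher by 0.68 on the log2 scale, while Ereg was at -0.90 and not called. Fibroblast and pericyte markers (8 genes) summed to 84.3 to 106 FPKM in WT and 155 to 175 in ADPKD. The sum understates single genes: 6 were called higher and 1 lower in ADPKD, with a median log2 fold change of 1.38. Pdgfrb, the 1 called lower (-1.12), had 91.3 and 65.6 FPKM in WT. Col1a1 and Col3a1 were higher by 4.62 and 4.67. Myeloid cells are known to make both ligands, and the part of these cells in the higher levels was not tested.

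Hbegf (heparin-binding EGF), the ligand gene with the highest level in every library but the first WT library, where Egf was above it, had 148 and 149 FPKM in WT, 192 and 203 in ADPKD, and 390 and 372 in ADPKD+MMPP. The groups did not overlap and replicates lay close together. From WT to ADPKD it differed by a log2 fold change of 0.41 (95% interval 0.13 to 0.69, adjusted p = 0.0461 by limma), which is under the 1.5-fold limit, so it was not called. Hbegf is a gene of the early response to cell dissociation too, and the 14 early-response markers summed to 13225 to 13712 FPKM in WT, 6173 to 8203 in ADPKD and 14859 to 14994 in ADPKD+MMPP. In ADPKD against WT, 9 of the 14 markers were called lower and 0 higher (median -0.78), beside 26.7% of all tested genes called. The sums after MMPP hide a split, in the comparison where the shift by gene structure applies. In ADPKD+MMPP against WT, 5 of the 14 markers were called higher and 6 lower as deposited, beside 73.9% of all tested genes called. The part of the early response in the Hbegf levels was not tested.

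Tgfa (TGF-alpha, chromosome 6 from 86195223 to 86275719, plus strand) had 3.54 and 4.46 FPKM in WT, 2.79 and 3.72 in ADPKD, and 6.51 and 8.26 in ADPKD+MMPP. WT and ADPKD overlapped, at a log2 fold change of -0.24 (SE 0.19, adjusted p = 0.390 by limma). Tgfa shares 118 exon bases with Gm43917 on the opposite strand. Btc (betacellulin, chromosome 5 from 91357261 to 91402994, minus strand) had 1.26 and 2.0 FPKM in WT, 6.89 and 1.74 in ADPKD, and 5.43 and 4.83 in ADPKD+MMPP. The first ADPKD library lay above both WT libraries and the second between them, and the interval of the log2 difference ran from -0.36 to 2.04. Without the second ADPKD library the difference was 1.6 and Btc was called higher, so its call turns on 1 library.

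Among the receptors, Egfr (chromosome 11 from 16752203 to 16918158, plus strand) had 2.74 and 4.11 FPKM in WT, 11.2 and 13.3 in ADPKD, and 13.9 and 13.6 in ADPKD+MMPP. All 4 Pkd1-/- libraries stood above WT. The rise over WT in ADPKD was 1.59 on the log2 scale (SE 0.19, adjusted p = 0.00488 by limma), above the values of the other 3 receptors, and it was called under each alternative tried.

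Erbb3 (chromosome 10 from 128567523 to 128589652, minus strand), the receptor that signals through PI3K, had 9.48 and 8.55 FPKM in WT, 15.3 and 20.4 in ADPKD, and 45.1 and 47.1 in ADPKD+MMPP. No library of one group overlapped another group. ADPKD exceeded WT by a log2 fold change of 0.90 (SE 0.16, adjusted p = 0.0145 by limma). Erbb4 (chromosome 1 from 68032186 to 69108059, minus strand), a receptor for neuregulins and for several EGF ligands, had 1.65 and 1.21 FPKM in WT, 2.72 and 4.58 in ADPKD, and 1.07 and 0.564 in ADPKD+MMPP. It was higher in ADPKD at a log2 fold change of 0.92 (SE 0.25, adjusted p = 0.0454 by limma), a call that was lost without the second WT library, at 0.78.

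Erbb2 (chromosome 11 from 98412470 to 98437716, plus strand), the partner receptor, had 11.7 and 10.9 FPKM in WT, 10.8 and 15.5 in ADPKD, and 6.32 and 7.67 in ADPKD+MMPP. WT and ADPKD overlapped, with an interval of the log2 difference from -0.30 to 0.66. Proximal tubule and endothelial cells express ErbB receptors as well, and 8 endothelial markers summed to 772 to 921 FPKM in WT, 547 to 567 in ADPKD and 324 to 353 in ADPKD+MMPP. The part of these cells in the receptor levels was not tested.

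The make-up of the family thus differed between WT and ADPKD cells. In WT, Hbegf and Egf led the order of levels without being apart from each other, followed by Erbb2 and Erbb3, then Tgfa and Egfr, Btc and Erbb4, then Areg and Ereg, with Tgfa and Egfr overlapping and Btc and Erbb4 overlapping. In ADPKD, Hbegf was first and apart from the rest, Erbb3 overlapped with Erbb2 and Erbb2 with Egfr behind it, and the other 6 each overlapped with their neighbours in the order. Egf made up 55.4% and 32.7% of the summed FPKM of the 6 ligands in WT and 5.17% and 0.188% in ADPKD, while Hbegf made up 43.0% and 64.3% in WT and 87.3% and 91.7% in ADPKD. The ligand sum itself was 345 and 232 FPKM in WT and 220 and 222 in ADPKD.

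Among the receptors, Erbb2 made up 45.8% and 44.1% of the summed FPKM in WT and 27.0% and 28.8% in ADPKD, and Egfr 10.7% and 16.6% in WT and 28.0% and 24.8% in ADPKD. Erbb3 held its share, 37.1% and 34.5% in WT and 38.2% and 38.0% in ADPKD. The sum of the 4 receptors was 25.6 and 24.8 FPKM in WT and 40.0 and 53.7 in ADPKD. Egfr relative to Erbb2 was 0.234 and 0.376 in WT and 1.03 and 0.861 in ADPKD, and Erbb3 relative to Erbb2 was 0.810 and 0.781 in WT and 1.41 and 1.32 in ADPKD.

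**Figure D2:**
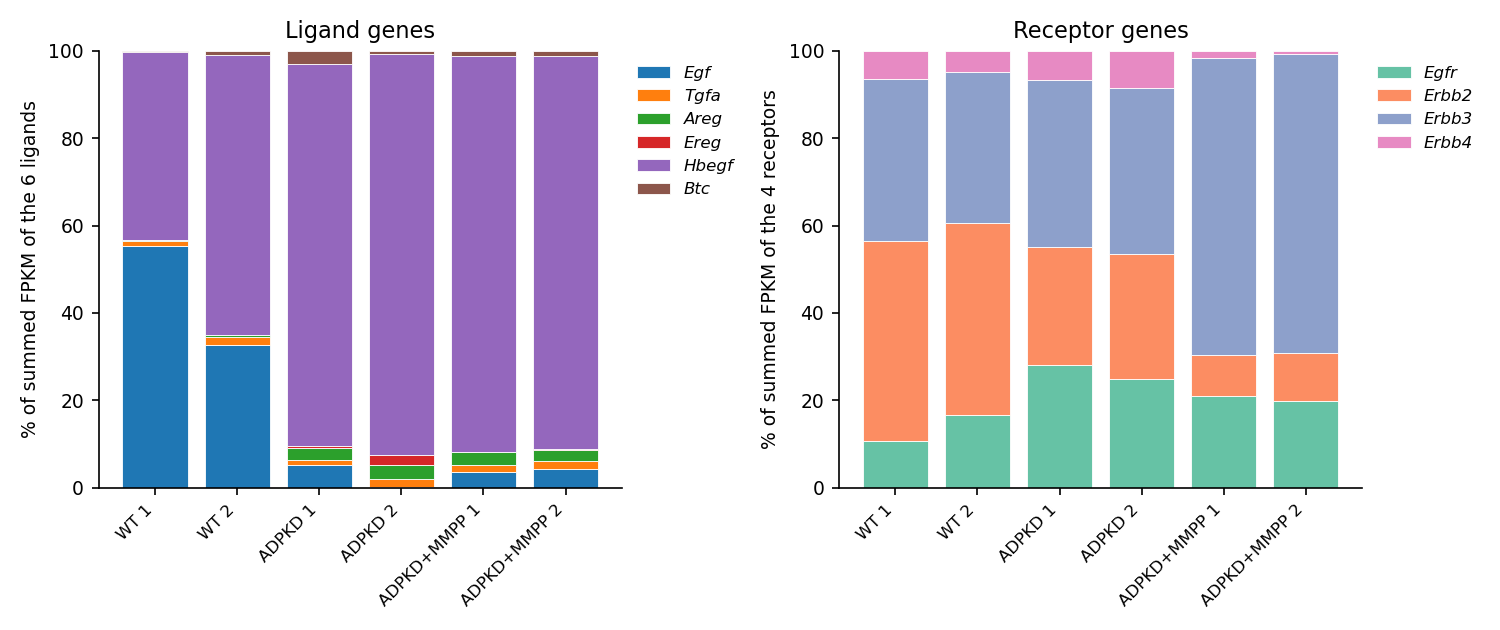
Share of each gene in the summed FPKM of the 6 ligands (left) and of the 4 receptors (right), in percent, with 1 stacked bar per library. Egf shrinks from 55.4% and 32.7% of the ligands in WT to at most 5.17% in the other libraries, and Erbb3 takes 67.9% and 68.3% of the receptors in the ADPKD+MMPP libraries.

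The comparison of ADPKD+MMPP with ADPKD asks which of these levels differed after treatment. In FPKM as deposited, Hbegf, Areg, Tgfa and Erbb3 were higher and Erbb2 and Erbb4 lower after MMPP, and of these Hbegf, Areg, Erbb2 and Erbb4 changed direction when centred. These 6 calls stand beside 70.9% of all tested genes called, 27.9% higher and 43% lower. Libraries did not overlap for 6 genes that were higher and 2 that were lower, beside 87.8% of all genes. When centred by gene structure, none of the 6 calls was kept: 5 genes were called, Egf, Btc, Erbb2 and Erbb4 higher and Ereg lower, beside 58.4% of the protein-coding genes called (34.2% higher and 24.3% lower), and Erbb2 and Erbb4 had the opposite call. As deposited, the 10 genes had a median log2 fold change of 0.54 and all genes tested one of -0.36.

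**Figure D3:**
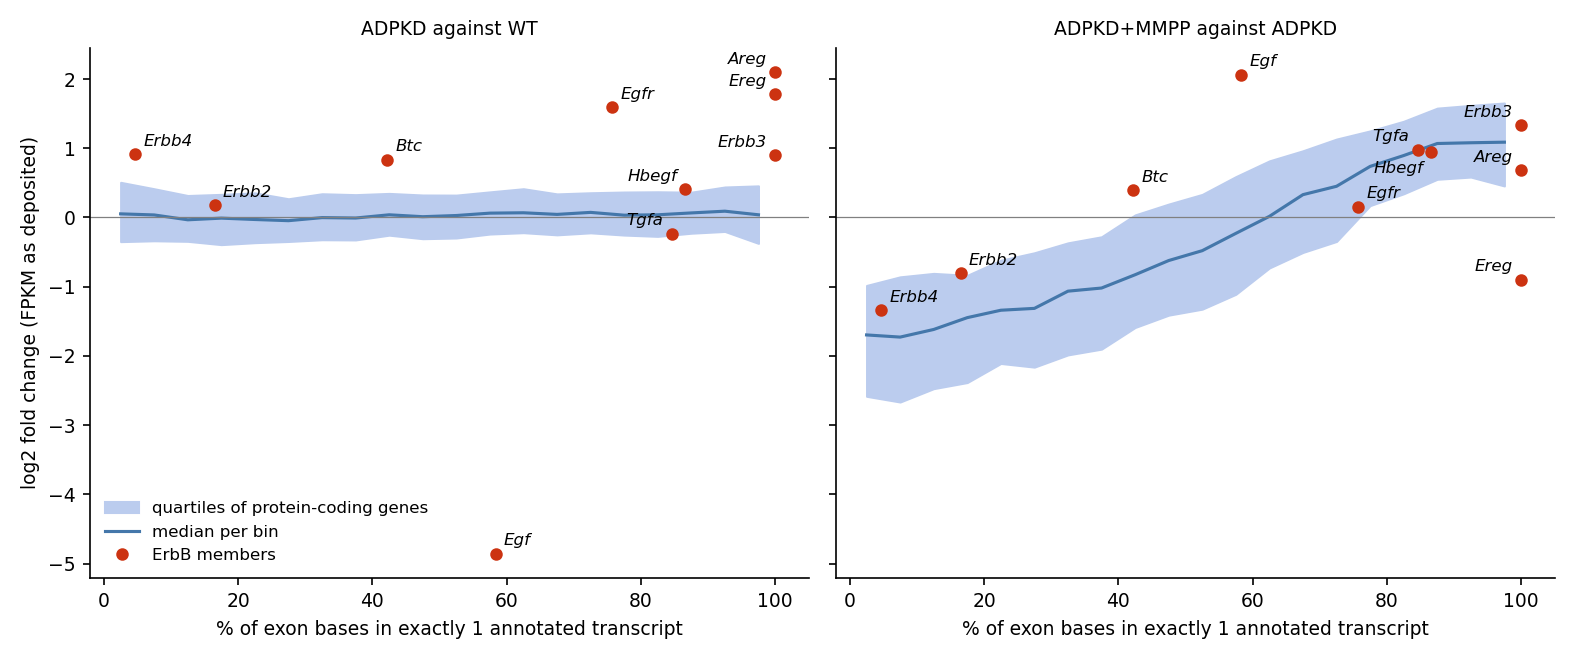
Log2 fold change (FPKM as deposited) against the percent of exon bases found in exactly 1 annotated transcript, for ADPKD against WT (left) and ADPKD+MMPP against ADPKD (right). The line is the median and the band the quartiles of protein-coding genes in 20 bins. On the right the medians climb from -1.70 to 1.09 and Tgfa, Hbegf, Erbb3, Areg, Erbb2 and Erbb4 follow the slope within or near the band, while on the left the medians stay near 0.

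Areg, Ereg and Erbb3 have 1 annotated transcript each, so that 100% of their exon bases lie in exactly 1, and genes of that bin had a median log2 fold change of 1.09. Erbb3 was higher by 1.33 as deposited (SE 0.16, adjusted p = 0.000698 by limma) and by 0.21 when centred (adjusted p = 0.293). Areg was higher by 0.68 as deposited (adjusted p = 0.0156 by limma), which was lost when the first ADPKD library (0.53) or the first ADPKD+MMPP library (0.54) was left out or the libraries were brought to a common sum (0.40), and the centred value was -0.44 (adjusted p = 0.0742). Ereg had a log2 fold change of -0.90 as deposited (adjusted p = 0.171 by limma) with overlapping libraries, and of -2.02 when centred (adjusted p = 0.0127), where it was called lower. As deposited it was also called lower without the first ADPKD library, at -1.70. Ereg values after MMPP rested on 24 and 65 reads.

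For Hbegf and Tgfa, with 86.6% and 84.6% of exon bases in 1 transcript, the log2 fold changes were 0.94 (SE 0.11, adjusted p = 0.000603 by limma) and 0.98 (SE 0.19, adjusted p = 0.00406). Centred, they were -0.17 and 0.04, with adjusted p = 0.224 and 0.874. Egfr, at 75.7%, was not called in either form, at 0.16 (95% interval -0.30 to 0.62) as deposited and -0.51 when centred (adjusted p = 0.0526).

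Erbb2 and Erbb4, with 16.5% and 4.66% of exon bases in 1 transcript, were lower by -0.81 (SE 0.19, adjusted p = 0.0104 by limma) and -1.34 (SE 0.25, adjusted p = 0.00368). Centred, both were higher, by 1.07 (adjusted p = 0.00331) and 0.81 (adjusted p = 0.0232). Set against the median fold change of the genes in their bins, -1.45 and -1.70, they differed by less, 0.64 and 0.35, and Erbb4 lay within the quartiles of its bin. The Erbb2 call as deposited was lost without the second ADPKD library, at -0.57. The Erbb4 values after MMPP rested on 156 and 76 reads, and with a pseudocount of 0.1 its fold change was -2.05.

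Egf and Btc are the 2 ligands with fewer exon bases in 1 transcript, 58.3% and 42.2%. Egf was above both ADPKD libraries after MMPP, at a log2 fold change of 2.06 (SE 1.01, adjusted p = 0.110 by limma), which was not called as deposited and was called at 2.58 when centred (adjusted p = 0.0498). Its size turned on the ADPKD libraries, at 3.63 without the first (called) and 0.50 without the second. Relative to Umod, Egf was 0.197 and 0.218 after MMPP and relative to Slc12a1 0.638 and 0.765, but these genes have 4.99% and 17.4% of exon bases in 1 transcript and Egf 58.3%. Intercalated cell markers (8 genes) summed to 245 to 258 FPKM in WT, 26.9 to 56.7 in ADPKD and 179 to 190 in ADPKD+MMPP. The sums had the same order of groups as Egf, but not every marker did. By group means, Kit and Insrr were lowest after MMPP, and Atp6v0d2 and Foxi1 highest. Of the thick limb and distal convoluted tubule markers, Slc12a3 and Pvalb also had the order of Egf, and the rest did not. The part of these cells in the Egf level was not tested. Btc changed by 0.40 as deposited (SE 0.48, adjusted p = 0.478 by limma) and by 1.48 when centred (adjusted p = 0.0258), and without the second ADPKD library its deposited value was -0.37, against 1.16, and a call, without the first.

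**Figure D4:**
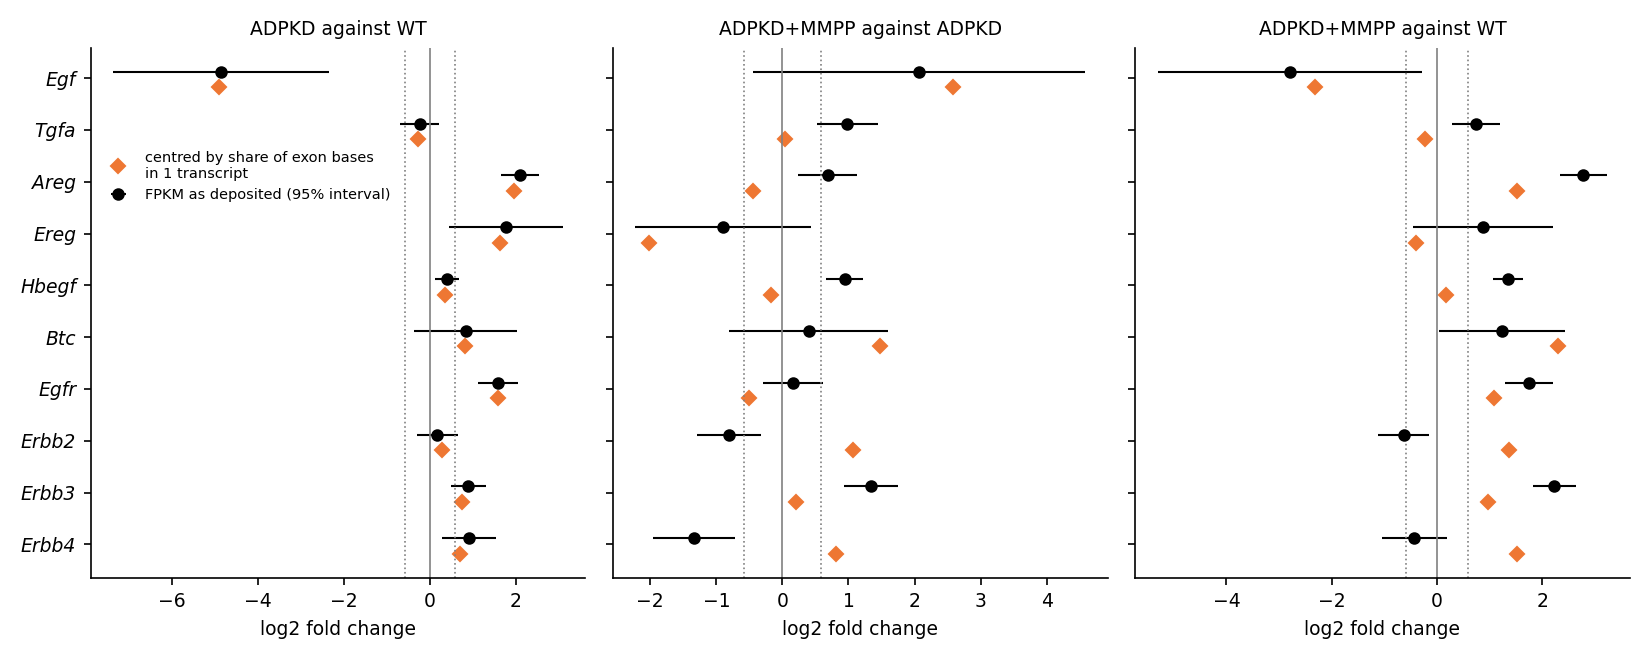
Log2 fold changes of the 10 genes in the 3 comparisons, with FPKM as deposited (circles, 95% interval) and after centring by gene structure (diamonds). Dotted lines mark the 1.5-fold limits. The symbols lie together in ADPKD against WT and apart in the comparisons with ADPKD+MMPP, where Erbb2 goes from -0.81 to 1.07 against ADPKD.

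In FPKM as deposited after MMPP, where the shift by gene structure can change the order of genes, Hbegf led the levels, followed by Erbb3, Egf, Egfr and Areg, each apart from the next, then Tgfa and Erbb2, which overlapped, Btc, and Ereg and Erbb4, which overlapped. Hbegf made up 90.6% and 89.9% of the ligand FPKM and Egf 3.67% and 4.17%. Erbb3 made up 67.9% and 68.3% of the receptor FPKM, Egfr 20.9% and 19.7%, Erbb2 9.53% and 11.1%, and Erbb4 1.61% and 0.818%. Erbb3 relative to Erbb2 was 7.12 and 6.14 after MMPP, and the former has 100% and the latter 16.5% of its exon bases in 1 transcript.

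Against WT, the comparison that shares its libraries with both others, the ADPKD+MMPP cells had higher Areg, Egfr, Erbb3, Hbegf, Tgfa and Btc and lower Egf and Erbb2 as deposited, and of these Tgfa and Erbb2 changed direction when centred. These 8 calls stand beside 73.9% of all tested genes called, 30.1% higher and 43.8% lower. Libraries did not overlap for 7 genes that were higher and 3 that were lower, beside 91.9% of all genes. Centred, 7 were called beside 62.8% of the protein-coding genes (36% higher and 26.8% lower), and 5 of the 8 calls held: Areg at 2.79 as deposited and 1.52 centred, Egfr at 1.75 and 1.10, Erbb3 at 2.23 and 0.97, Btc at 1.23 and 2.30, and Egf at -2.79 and -2.32. The adjusted p-values of these 5 by limma as deposited were 6.18e-05, 0.000333, 8.98e-05, 0.0567 and 0.0445. Hbegf went from 1.35 to 0.18 and Tgfa from 0.74 to -0.23, neither called when centred, and Erbb2 from -0.63 to a call at 1.36. Erbb4 was not called as deposited, at -0.43, and was called higher when centred, at 1.52. Egf in ADPKD+MMPP lay below both WT libraries, but its call was lost without any 1 of the WT or ADPKD+MMPP libraries, with values from -3.45 to -2.13, and the Btc call was also lost without any 1 of those 4, from 1.03 to 1.44. The Erbb2 call was lost without the first (-0.58) or second (-0.67) WT library or the first ADPKD+MMPP library (-0.51), and the Tgfa call without the first WT (0.61) or second ADPKD+MMPP library (0.59). Ereg differed from WT by 0.88 as deposited (adjusted p = 0.176 by limma), was called without either ADPKD library and with only the compared groups in the fit, which changes only the spread, was called at 2.84 with a pseudocount of 0.1 (adjusted p = 0.0329), and was at -0.39 when centred.

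Of the wider pathway, 75 genes were listed by role, and 71 were tested. ADPKD cells had 11 of them higher and 13 lower, 24 of 71, beside the 26.7% of all tested genes called (14.2% higher and 12.5% lower), the share against which the class counts in ADPKD that follow also stand. Their median difference was -0.02 on the log2 scale, against 0.03 over all genes. Centred, 25 were called, among them all 24 of these with the same direction. After MMPP, 12 were higher and 40 lower than in ADPKD as deposited (median -0.88, against -0.36 over all genes). Beside this, 70.9% of all tested genes were called, 27.9% higher and 43% lower. Centred, 13 were higher and 28 lower, beside 58.4% of the protein-coding genes called, 34.2% higher and 24.3% lower. The totals, 52 and 41 of 71, were near the shares over all genes, but the directions were not. Lower calls outnumbered higher ones in the centred list, while higher calls were the more frequent over all protein-coding genes. The forms had 31 calls in common and 2 that were opposite, Etv4 and Etv5. The genes of the list had a median of 51.8% of exon bases in 1 transcript.

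Among the other ligands, only Nrg1, a neuregulin that binds ERBB3 and ERBB4, passed the filter. It had 0.572 and 1.09 FPKM in WT, 4.36 and 3.67 in ADPKD, and 1.01 and 0.962 in ADPKD+MMPP. It was higher in ADPKD by a log2 fold change of 1.46 (adjusted p = 0.00499 by limma) and lower after MMPP by -1.33 as deposited and -0.60 centred, called in both. Epgn, Nrg2 and Nrg4 stayed below 1 FPKM in every library, and Nrg3 was listed at 0 in all 6.

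Among 11 genes of ligand release, 2 were higher and 2 lower in ADPKD. Adam8, a metalloprotease known from myeloid cells, had 0.663 and 0.606 FPKM in WT and 11.3 and 20.3 in ADPKD, a log2 fold change of 3.31, and the rhomboid protease gene Rhbdl2 rose by 1.6. Adam12 was lower by -1.14 and Timp3, an inhibitor of such proteases, by -0.92. The main sheddases were not called in ADPKD: Adam17, which releases TGF-alpha, amphiregulin and HB-EGF, had 8.13 and 8.33 FPKM in WT and 10.1 and 9.08 in ADPKD (0.20), and Adam10, which releases EGF and betacellulin, 17.7 and 15.6 in WT and 24.1 and 23.7 in ADPKD (0.50). After MMPP, Adam17 had 0.900 and 0.641 FPKM (-2.58, and -1.39 centred), Rhbdf2, which carries ADAM17 to the surface, 2.43 and 2.32 against 52.3 and 53.4 in ADPKD (-4.0, and -2.61 centred), and Adam10 42.1 and 41.1 (0.77, and 1.86 centred), each called in both forms.

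In the adaptor and RAS-ERK class (17 genes), Nras rose in ADPKD by 0.92 and Gab2 fell by 0.70 on the log2 scale, with 1 higher and 2 lower in all. After MMPP, Map2k1, which encodes MEK1, was higher by 1.65 (1.35 centred), and Mapk3, which encodes ERK1, lower by -5.23 (-3.61 centred), from 55.6 and 49.6 FPKM to 0.375 and 0.487. In the PI3K-AKT and STAT class (14 genes), 1 was higher and 3 lower in ADPKD: Src rose by 1.66, from 6.56 and 6.43 to 19.1 and 26.8 FPKM. After MMPP, Src had 0.155 and 0.210 FPKM (-4.32, and -2.43 centred) and Pik3r2, a PI3K regulatory subunit, was higher by 1.16 (1.27 centred).

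**Figure D5:**
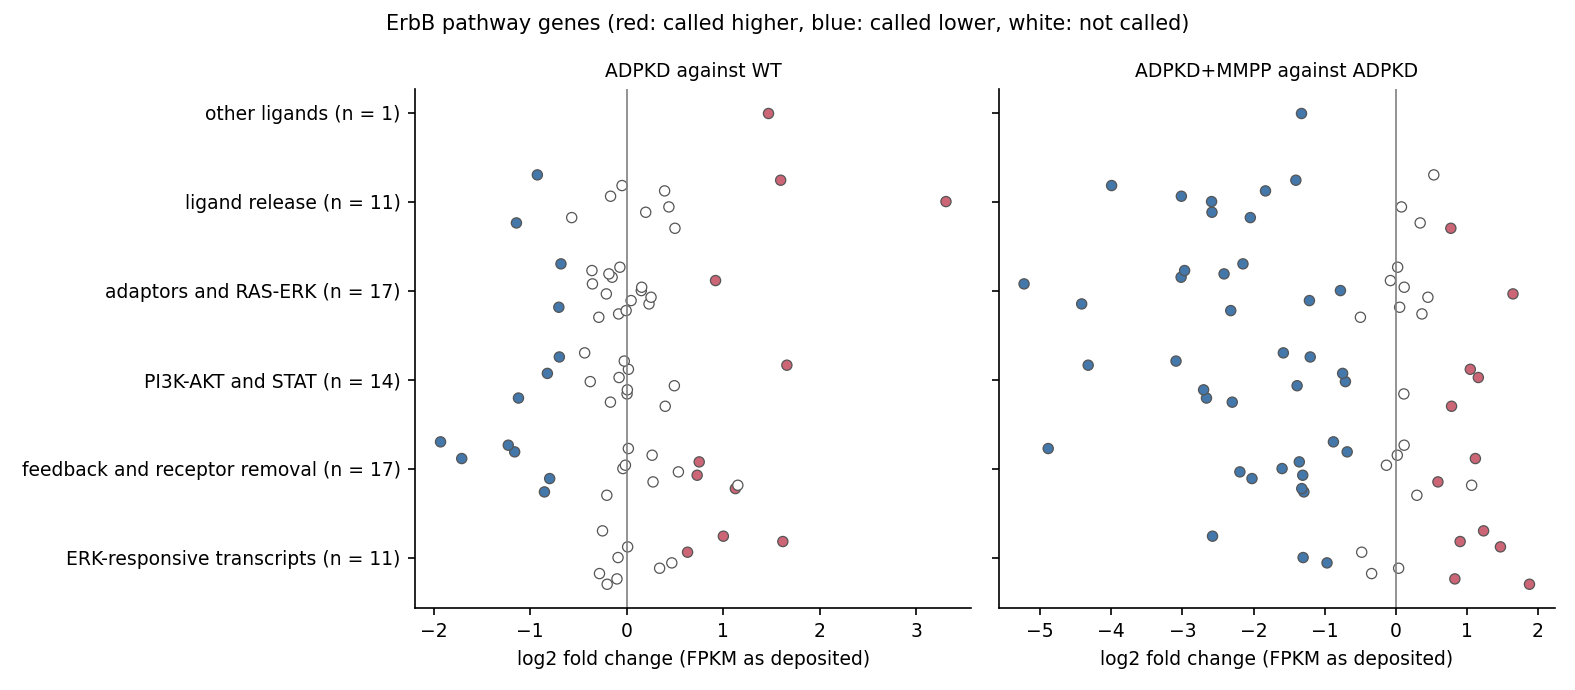
Log2 fold changes (FPKM as deposited) of the 71 tested pathway genes by class, in ADPKD against WT (left) and ADPKD+MMPP against ADPKD (right), with called genes filled. In ADPKD the called feedback genes lie mostly on the lower side (6 of 9), and after MMPP 40 of the 52 called genes are lower.

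Of 17 genes for feedback and receptor removal, 3 were higher and 6 lower in ADPKD. Spry4, an inhibitor of the RAS-ERK cascade, had 77.0 and 54.2 FPKM in WT and 22.5 and 11.6 in ADPKD, and Socs3, an inhibitor of cytokine and receptor kinases, 930 and 824 in WT and 327 and 218 in ADPKD. Their log2 fold changes were -1.93 and -1.71 (adjusted p = 0.0115 and 0.00536 by limma). Dusp6, the ERK phosphatase, fell by 0.80, while Errfi1, an inhibitor of the EGFR kinase, rose by 0.73 and the ubiquitin ligase gene Cblc by 1.13. Lrig1, which promotes removal of ErbB receptors, had a log2 fold change of 0.54 and was not called. After MMPP, Spry1 was lower by -4.89 as deposited and -3.01 centred, called in both. For Dusp6 (-2.02), Errfi1 (-1.31), Lrig1 (-2.19) and Socs3 (1.12), calls as deposited were lost when centred, at -0.12, 0.57, -0.29 and 0.01.

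Of the 11 genes listed as ERK-responsive transcripts, 3 were higher in ADPKD and none was lower by limma, which holds for this list only. Spry4 and Dusp6, lower in ADPKD, were listed under feedback. Fos (-1.41) and Egr1 (-1.36) were among the 14 early-response markers, of which 9 were called lower and 0 higher in ADPKD. Phlda2 rose by 1.62, Plaur, the urokinase receptor, by 1.0 and Fosl1, an AP-1 subunit, by 0.63, the last with an adjusted p = 0.0753. After MMPP, Ccnd1, which encodes cyclin D1, had 90.0 and 87.5 FPKM against 35.2 and 15.4 in ADPKD, at 1.88 as deposited and 0.94 centred, and Plaur was lower by -2.58 and -1.19, both called in each form.

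Genes most like a member were sought for the members that spanned at least 2 on the log2 scale, by the distance between centred log2(FPKM + 1) profiles over the 6 libraries among 9431 genes. For Egf these were Klk1 at 2.03, Slc26a4 at 2.23 and Gcgr at 2.26, where Klk1 encodes a tubular kallikrein, Slc26a4 the chloride-bicarbonate exchanger pendrin of intercalated cells and Gcgr the glucagon receptor. Klk1 had 792 and 710 FPKM in WT, 149 and 25.5 in ADPKD and 377 and 342 in ADPKD+MMPP. For Areg they were Tmem119 at 0.276, Tlr2, an innate immune receptor, at 0.308 and Ctsc, a lysosomal protease, at 0.376. Tlr2 had 7.96 and 6.93 FPKM in WT, 35.8 and 40.2 in ADPKD and 53.9 and 54.8 in ADPKD+MMPP. For Ereg they were Spsb1 at 0.640, Pdlim4 at 0.711 and Gm16071 at 0.714, and for Erbb3 Tmem127 at 0.213, Cdc42ep5 at 0.216 and Nus1 at 0.223. The likeness is a description over 6 libraries, and profiles with the same share of exon bases in 1 transcript share the shift of the ADPKD+MMPP libraries.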

How the data were processed

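RNA-seq of DBA+ kidney cells was made on poly(A) RNA on the Illumina NovaSeq platform. The authors aligned the reads to GRCm38/mm10 with HISAT2 v2.1.0, counted them with featureCounts v1.6.0 and deposited FPKM per gene symbol and library. The annotation, the strand setting and the way FPKM was made are not given in the sources used here. The authors' own calls rested on DESeq2, which was not run here because FPKM are not counts. Of 55367 symbols, 53253 matched GENCODE vM21, the source of gene positions, transcripts and exon lengths. FPKM times exon length gave reads, and 98.3% to 99.0% of low values were whole within 0.05. The scale assumed that the commonest low step in each library was a read pair. All depths and read numbers rest on this assumption, which was not tested.

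The 14862 genes that reached 1 FPKM in 2 or more libraries entered limma 3.58.1 (R 4.3.3) as log2(FPKM + 1), with all 6 libraries in the same model and Benjamini-Hochberg adjustment. Fold changes of weakly expressed genes are understated on this scale. Calls used the study's thresholds, a fold change of 1.5 and P of 0.05. The centred alternative subtracted each library's median in each of 20 equal-width bins over 12374 protein-coding genes, with at least 300 genes per bin. The steps were tested on simulated data. Members, lists, tests and most alternatives were chosen with earlier results of these data known, and an alternative with only the 1308 genes of 1 annotated transcript was added after seeing the data. Replicate numbers did not pair libraries: deviations correlated between groups at 0.13, -0.0080 and 0.014. The named genes are the members, the other ligands, the called pathway genes with the largest and lowest change per class in the first 2 comparisons, 6 genes chosen by role (Errfi1, Lrig1, Adam10, Adam17, Rhbdf2, Dusp6) and the 3 genes nearest to a member spanning at least 2 on the log2 scale, among genes with a mean of at least 5 FPKM in a group. A gene chosen by this rule is not reported here. Rhbdl2, Timp3, Etv4 and Etv5 were named after their values were seen. So were the markers Slc12a3, Ppp1r1a, Pvalb, Trpm6, Kit, Insrr, Atp6v0d2, Foxi1, Pdgfrb, Col1a1, Col3a1, Fos and Egr1. Podocyte markers (5 genes) summed to 900 to 1231 FPKM in WT, 90.8 to 205 in ADPKD and 87.2 to 89.7 in ADPKD+MMPP. Principal cell markers (10 genes) summed to 2097 to 2798 FPKM in WT, 958 to 2507 in ADPKD and 5438 to 5459 in ADPKD+MMPP. Promoter windows came from RefSeq on GRCm38.p6.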

Additional observations from a re-analysis of the deposited data

How the results depend on the processing

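In ADPKD against WT, the 6 calls among the 10 genes stayed between 4 and 6 over 11 alternatives (pseudocount, filter, scaling, centring, trend, groups, thresholds, block) and between 4 and 7 when 1 library was left out. After MMPP they ranged from 2 to 7 and from 5 to 8, and against WT from 6 to 9 and from 4 to 9. A fold change of at least 2 left 13 of the 24 pathway calls in ADPKD and 2 of the 6 calls of the 10 genes after MMPP. In ADPKD+MMPP against WT the 8 calls became 4 without the first and 5 without the second WT library, and 5 without either ADPKD+MMPP library. Egfr in ADPKD+MMPP against ADPKD turned to -0.13 at a common sum and -0.51 centred. Centred values also turned for Areg (-0.44), Hbegf (-0.17), Erbb2 (1.07) and Erbb4 (0.81) against ADPKD, and for Tgfa (-0.23), Ereg (-0.39), Erbb2 (1.36) and Erbb4 (1.52) against WT. Erbb4 against WT was 0.21 under quantile normalization. Without the second ADPKD library, Erbb2 in ADPKD against WT was -0.060 and Btc in ADPKD+MMPP against ADPKD -0.37, and without the first 0.42 and 1.16. With only genes of 1 annotated transcript, added after seeing the data, Areg was -0.48 against ADPKD and Ereg -0.43 against WT. The cause of these turns was not tested. The higher and lower calls after MMPP, 4 and 2, became 4 and 1 by median of ratios and 3 and 1 by quantiles, and against WT 6 and 2 became 4 and 3 at a common sum. Scaling moved the median over all genes after MMPP from -0.36 to between -0.55 and 0.10. With a replicate block, 6, 7 and 8 of the 10 genes were called in the 3 comparisons, against 6, 6 and 8. The depth of the ADPKD+MMPP libraries limits Ereg and Erbb4 there.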
